A study of Homo sapiens with 6 samples.

Results

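The matrix proteases and their inhibitors were examined as a set of 46 genes: 18 matrix metalloproteinases (MMPs), 4 tissue inhibitors of metalloproteinases (TIMPs), 7 ADAM proteases, 14 ADAMTS proteases, the lysosomal cathepsins CTSB and CTSD, and FAP, a serine protease of activated fibroblasts. A gene was measured where the array's annotation gave a probe set that gene alone, and the probe set with the highest mean over the 6 arrays stood for it. This left 44 of the 46 among 18417 genes tested; ADAMTS7 and ADAMTS15 had no such probe set and were not analysed here. The samples were 3 arrays of untreated parental MDA-MB231 cells, an established metastatic breast cancer line, and 3 arrays of 1 clone of these cells with a stable G9a knockdown, labelled as less metastatic. All were grown in DMEM/F12 with serum and harvested in logarithmic growth. Since a single clone was set against parental cells, effects of the knockdown and of clone selection cannot be told apart. The labels do not say whether the replicates were grown separately; p-values here reflect the scatter among these 6 arrays, which may be technical.

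MMPs and ADAMTS proteases are zinc-dependent enzymes that cut collagens, proteoglycans and other matrix proteins, most of them made as inactive proenzymes. ADAMs are membrane-anchored relatives that release growth factors, cytokines and receptors from the cell surface. TIMPs block the active site of MMPs and of some ADAMs and ADAMTS proteases. In breast cancer this system is known for its part in invasion, and much of its regulation lies in secretion, activation and inhibition of the proteins, which transcript arrays do not measure.

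EHMT2, which encodes the targeted methyltransferase G9a, read 10.21, 10.27 and 9.93 on the control arrays and 9.66, 9.59 and 9.51 on the knockdown arrays. It fell by 0.55 ± 0.10 (SE) on the log2 scale (limma, adjusted p = 0.0259), a call lost on leaving out control 1 (adjusted p = 0.0743), control 2 (0.0778) or any knockdown array (0.0764, 0.0716 and 0.122 for knockdown 1, 2 and 3). The call of EHMT2 was also lost with every probe set tested (limma, adjusted p = 0.0957). Pearson r between arrays ran from 0.992 to 0.997 across probe sets. Ordered by mean level, the 6139 dimmest of the 18417 genes (the dimmest genes below) held the hormone receptor genes ESR1 and PGR and the epithelial cadherin gene CDH1, and the mesenchymal line markers VIM and CD44 lay near the top. The rest of this marker list lay above the dimmest genes, epithelial genes included: KRT18 (mean 12.26), EPCAM (8.86), ERBB2 (9.81) and EGFR (11.58). CDH1 rose by 0.45 (adjusted p = 0.0177); this call survived leaving out control 3 and no other array (adjusted p from 0.0525 to 0.0983). Markers of other cell types moved in places: of 9 fibroblast markers LUM fell by 1.31 on the log2 scale (limma, adjusted p = 0.00732) and the others did not pass. LUM lay among the dimmest genes, with a mean of 6.98. Of 10 measured leukocyte and endothelial markers CDH5 rose by 0.71 (adjusted p = 0.0210), and 9 did not pass; CDH5 missed the threshold on leaving out control 2 (0.0671) or knockdown 1, 2 or 3 (0.0869, 0.0615 and 0.0737). The shares that passed were 11.1% of the fibroblast list and 10.0% of the leukocyte and endothelial list, beside 3.05% of all genes. The mean level of the fibroblast list ran from 6.87 to 7.11 on the control arrays and from 6.86 to 6.89 on the knockdown arrays. For the leukocyte and endothelial list it ran from 7.36 to 7.49 and from 7.54 to 7.63. The part of such markers in the results below was not tested.

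Matrix protease genes moved in both directions in the knockdown clone, and few moved far. The proteoglycan-cleaving protease gene ADAMTS1 fell 1.56-fold and the stromelysin gene MMP3 fell 1.29-fold, while the collagenase gene MMP13 rose 1.39-fold and the inhibitor gene TIMP4 rose 1.36-fold. These 4 of the 44 measured members (9.09%) passed the test (limma over all 18417 genes, adjusted p of 0.05), and 40 did not; of all genes tested, 3.05% passed, 1.28% higher and 1.78% lower. Leaving out control 1 or control 3 gave 3 called members, leaving out control 2 or any knockdown array gave 1, and ADAMTS1 was the 1 member that passed in each of these 6 fits. Before adjustment 13 members had a p under 0.05 (29.5%, beside 19.4% of all genes). The arrays of both groups did not overlap, with the knockdown higher, for 12 members (27.3%, beside 14.3% of all genes). With the knockdown lower this held for 5 members (11.4%, beside 12.7%). The median difference, knockdown minus control, was 0.04 over the members and 0.03 over all genes. Its absolute size had a median of 0.10 for members and 0.09 for all genes.

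**Figure D1:**
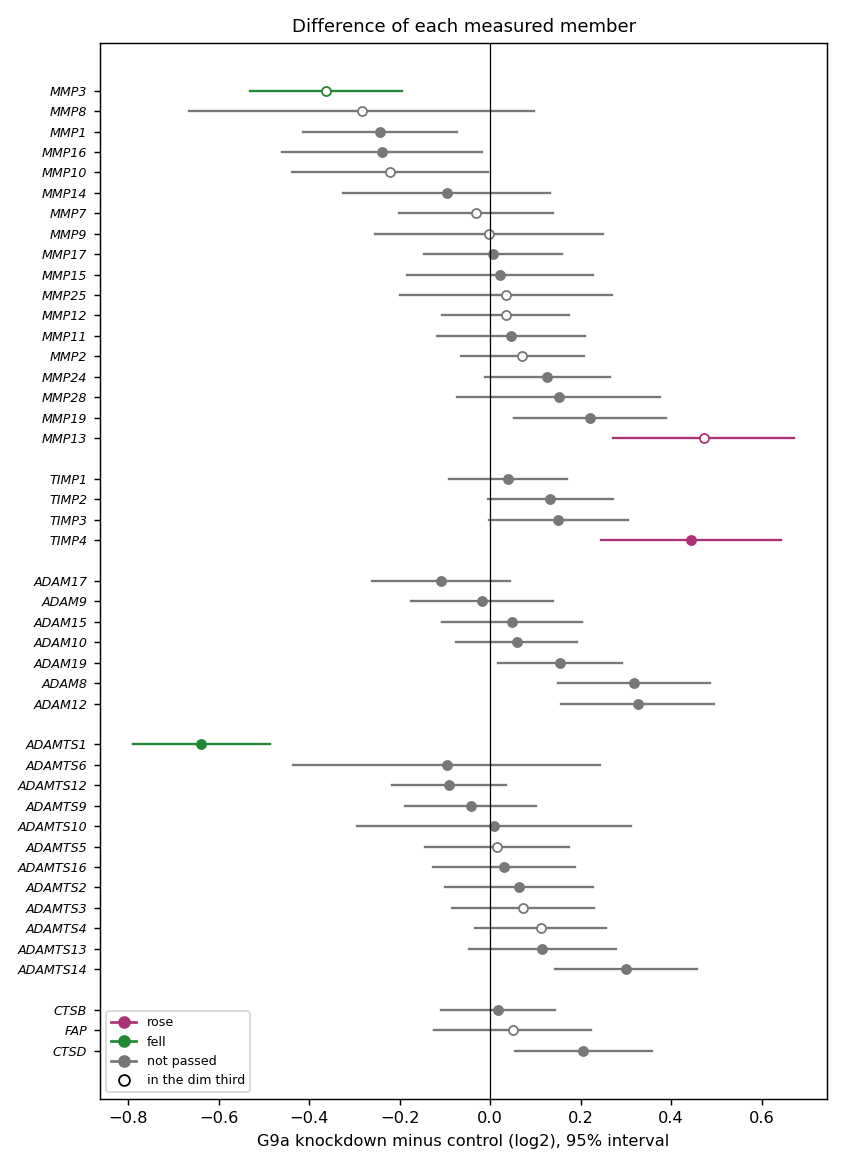
Difference between G9a knockdown and control (log2, horizontal axis) for each of the 44 measured members, grouped as MMPs, TIMPs, ADAMs, ADAMTS proteases and the remaining 3 genes. Points are limma estimates, lines their 95% intervals for each gene alone, and open points lie among the 6139 dimmest genes; ADAMTS1 is farthest from 0 at -0.64, and most intervals include 0.

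By mean level over the 6 arrays, 31 members lay above the 6139 dimmest genes and 13 lay among them. The bound was 7.53 on the log2 scale. The 13 were MMP2, MMP3, MMP7, MMP8, MMP9, MMP10, MMP12, MMP13, MMP25, ADAMTS3, ADAMTS4, ADAMTS5 and FAP, so 9 of the 18 MMPs but none of the TIMPs or ADAMs were in this range. Just below the bound were MMP9 (mean 7.53) and MMP25 (7.52), and just above it ADAMTS13 (7.55) and ADAMTS10 (7.58). Olfactory receptor genes, which are silent in most tissues outside the nose, gave a further yardstick: 95% of 361 of them read below 7.34, and 33 members lay above that level. MMP3 and MMP13 lay below it, so both of their calls concern signals in the range of olfactory receptor genes. No detection call was used for these arrays, and probe sets differ in how strongly they bind their transcript, so these places describe signal and give no order of transcript abundance. Of the 31 members above the bound 2 passed (6.45%), beside 3.97% of the 12278 genes above it.

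**Figure D2:**
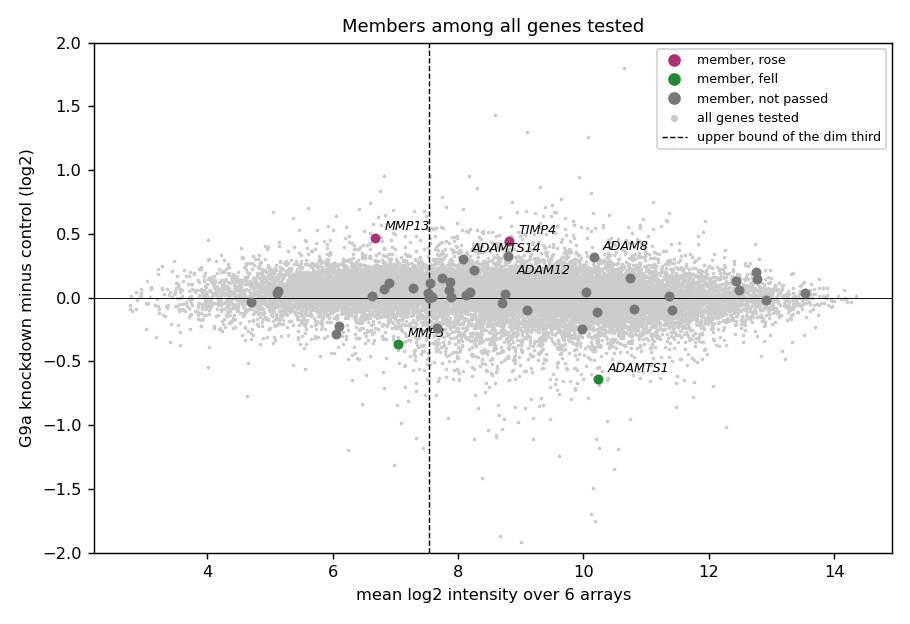
Mean log2 intensity over the 6 arrays (horizontal axis) against the difference between G9a knockdown and control (log2, vertical axis) for all 18417 genes tested (grey) and the 44 members (coloured by the limma call). The dashed line at 7.53 bounds the 6139 dimmest genes, with MMP3 and MMP13 to its left and ADAMTS1 and TIMP4 to its right.

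Among the proteoglycanases of the ADAMTS family, ADAMTS1, which cuts aggrecan and versican, read 10.57, 10.49 and 10.62 on the control arrays and 9.92, 9.98 and 9.85 on the knockdown arrays. Every knockdown array was below every control array, and the groups lay far apart beside their spread. The difference was -0.64 ± 0.07 (SE, n = 3 per group), with a 95% interval from -0.79 to -0.49 (limma, adjusted p = 0.00574). In bulk RNA, fewer cells that express a gene and less of its RNA per cell cannot be told apart. With 1 array left out the difference ranged from -0.67 to -0.61 and the adjusted p from 0.0119 to 0.0454. ADAMTS5, an aggrecanase gene and the next gene tested beside ADAMTS1 on chromosome 21, had a difference of 0.02 ± 0.07 (SE) with overlapping groups. None of the 10 nearest tested genes, 5 on each side of ADAMTS1, passed, beside 3.05% of all genes, and their median difference was 0.03. The aggrecanase gene ADAMTS4 stood at 0.11 (adjusted p = 0.376) and ADAMTS9, which cuts aggrecan and versican, at -0.04 (adjusted p = 0.753).

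ADAMTS2, ADAMTS3 and ADAMTS14 encode the proteinases that remove the amino-terminal propeptide of fibrillar procollagens. ADAMTS14 read 7.83, 8.03 and 7.91 in control and 8.22, 8.25 and 8.20 in the knockdown. Its groups did not overlap, and the difference was 0.30 ± 0.07 (SE, n = 3 per group), which missed the threshold (limma, adjusted p = 0.0588). It passed when the dimmest genes were left out (0.0310) and with array weights (0.0356), and in no other fit run. With array weights 18.1% of all genes passed. For ADAMTS14 the adjusted p from limma was 0.0526 with an intensity trend and 0.0722 after quantile normalization. With every probe set tested it was 0.147, and with 1 array left out 0.0818 to 0.177. ADAMTS2 (0.06) and ADAMTS3 (0.07) had overlapping groups. The remaining measured ADAMTS genes did not pass. ADAMTS13, whose enzyme trims von Willebrand factor, was at 0.12, and the others were ADAMTS6 (-0.10), ADAMTS10 (0.01), ADAMTS12 (-0.09) and ADAMTS16 (0.03). ADAMTS12 was lower on every knockdown array (10.74 to 10.77) than on every control array (10.82 to 10.87), with an adjusted p of 0.408. ADAMTS6 read 9.02, 8.89 and 9.53 in control and 8.996, 9.11 and 9.05 in the knockdown. Control 3 stood apart, and leaving it out turned the difference to 0.09.

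**Figure D3:**
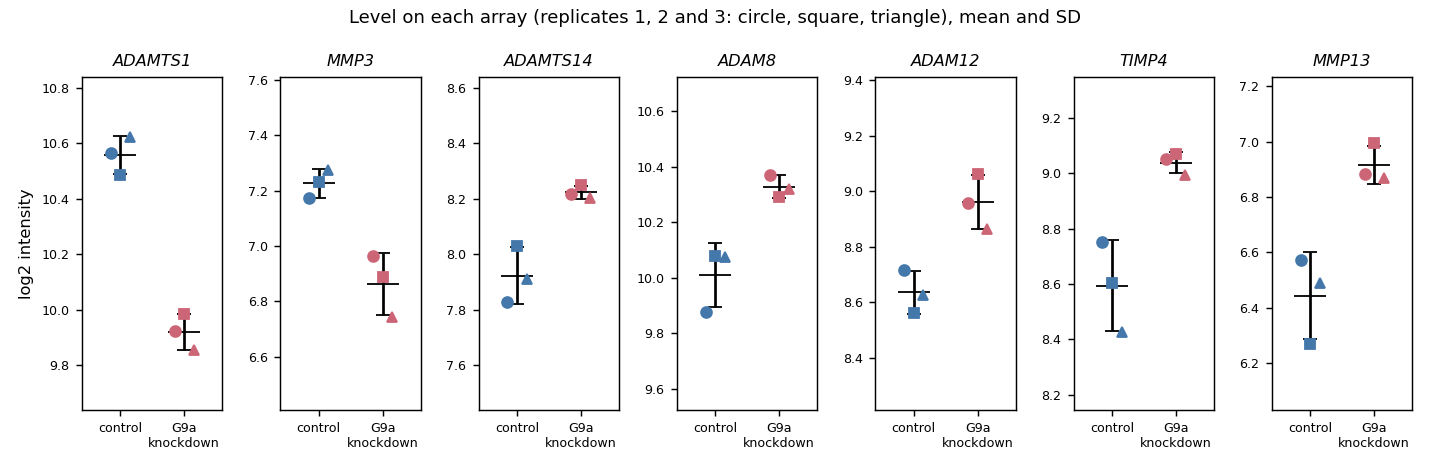
Log2 intensity (vertical axis) on the 3 control and 3 G9a knockdown arrays for the 7 members named in full, in order of their difference; bars give mean and SD. In each of the 7 panels the groups do not overlap, with the knockdown lower for ADAMTS1 and MMP3 and higher for the other 5. Non-overlap was part of the rule that chose the 7, and 27.0% of all genes tested did not overlap.

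The secreted collagenases, stromelysins and related MMPs lie largely in a gene cluster on chromosome 11. In the gene order of RefSeq on GRCh38.p14 the tested genes run MMP7, MMP20, MMP27, MMP8, MMP10, MMP1, MMP3, MMP12 and MMP13. Before their values, the bases just upstream of the cluster genes for which RefSeq gave a promoter window are shown, because these genes are known for short promoters in which a TATA box and a binding site for AP-1, the FOS and JUN factor, stand close to the start. TIMP4 is set beside them as a member that rose and lies outside the cluster. No window was found for the cluster members MMP1, MMP3, MMP12 and MMP13, nor for ADAMTS1. Of the called members only TIMP4 is therefore shown, and the bases below do not cover MMP3 or MMP13. Each run holds the 250 bases before the annotated start on GRCh38.p14, read 5′ to 3′ along the gene, with matches to the AP-1 letters TGANTCA and the TATA letters TATAAA in capitals.
MMP7, chr11:102530748-102530997, minus strand: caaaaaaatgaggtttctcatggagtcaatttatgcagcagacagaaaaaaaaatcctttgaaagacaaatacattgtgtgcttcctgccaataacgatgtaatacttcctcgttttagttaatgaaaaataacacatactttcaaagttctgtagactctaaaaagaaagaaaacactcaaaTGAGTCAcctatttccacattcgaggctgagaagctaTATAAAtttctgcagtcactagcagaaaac
MMP8, chr11:102724955-102725204, minus strand: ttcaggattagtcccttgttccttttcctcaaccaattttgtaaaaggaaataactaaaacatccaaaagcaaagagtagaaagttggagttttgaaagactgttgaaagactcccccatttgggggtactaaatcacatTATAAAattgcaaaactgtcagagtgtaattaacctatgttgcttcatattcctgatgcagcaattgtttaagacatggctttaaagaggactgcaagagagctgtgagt
MMP10, chr11:102780629-102780878, minus strand: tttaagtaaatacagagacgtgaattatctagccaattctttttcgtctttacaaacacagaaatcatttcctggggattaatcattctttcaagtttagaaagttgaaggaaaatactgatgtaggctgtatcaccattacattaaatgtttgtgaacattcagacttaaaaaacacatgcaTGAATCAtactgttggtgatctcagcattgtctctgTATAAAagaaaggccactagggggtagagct
TIMP4, chr3:12158913-12159162, minus strand: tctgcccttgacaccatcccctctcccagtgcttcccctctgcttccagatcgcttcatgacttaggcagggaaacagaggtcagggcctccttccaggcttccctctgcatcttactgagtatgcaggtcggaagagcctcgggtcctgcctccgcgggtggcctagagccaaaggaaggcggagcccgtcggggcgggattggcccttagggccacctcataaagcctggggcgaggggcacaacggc

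MMP7 and MMP10 each held 1 AP-1 match, at -67 from the start in both, and 1 TATA match, at -30 and -31. MMP8 held a TATA match at -110 and no AP-1 match, and TIMP4 held neither. The AP-1 letters were searched on both strands, on which they read alike, and the TATA letters on the gene's strand. Windows were found for 25 of the 46 members. The AP-1 letters were in 3 of them (12%, beside 6.57% of the 35116 RefSeq windows searched): MMP7, MMP10 and, at -84, ADAMTS12. The TATA letters were in 3 (12%, beside 6.80%): MMP7, MMP8 and MMP10. The letters GGGCGG of the GC box, on either strand, were in 20 of the 25 (80.0%, beside 42.6%), TIMP4 among them but not MMP7, MMP8 or MMP10. The 35116 windows cover only genes for which a window was given and were not filtered by gene type, so these shares may compare unlike sets. G and C made up 33.6%, 36.4% and 34.4% of the windows of MMP7, MMP8 and MMP10 and 62.8% of that of TIMP4. These are matches of letters and were not tested as binding sites.

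In this cluster the differences were of both signs, and the called genes MMP3 and MMP13 both lay among the dimmest genes (means 7.05 and 6.68). MMP3, whose stromelysin degrades many matrix proteins and activates other MMPs, read 7.17, 7.23 and 7.28 in control and 6.96, 6.89 and 6.74 in the knockdown. All knockdown arrays were lower, and MMP3 fell by 0.36 ± 0.07 (SE, n = 3 per group; limma, adjusted p = 0.0404). This call was lost whichever array was left out: the adjusted p was 0.0835, 0.122 and 0.0755 on dropping control 1, 2 and 3, and 0.0693, 0.0997 and 0.15 on dropping knockdown 1, 2 and 3. MMP13, a collagenase gene at the end of the cluster, read 6.57, 6.27 and 6.49 in control and 6.88, 6.995 and 6.87 in the knockdown. All knockdown arrays were higher, and MMP13 rose by 0.47 ± 0.09 (SE, n = 3 per group; limma, adjusted p = 0.0315). It still passed on dropping control 1 (adjusted p = 0.0421). It missed the threshold on dropping control 2 or 3 (0.0783 and 0.0546) or knockdown 1, 2 or 3 (0.1, 0.0926 and 0.114). The same held after quantile normalization (0.0599), with a replicate block (0.0782) and with every probe set tested (0.105). MMP12, the macrophage elastase gene between them, stood at 0.03 with overlapping groups. RefSeq places WTAPP1, a transcribed pseudogene with no value here, across MMP1 and MMP3.

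MMP1, the interstitial collagenase gene next to MMP3, was the cluster's 1 member above the dimmest genes. It read 10.03, 10.08 and 10.21 in control and 9.90, 9.92 and 9.76 in the knockdown. Its groups did not overlap, and the difference of -0.24 ± 0.07 (SE, n = 3 per group) did not pass (limma, adjusted p = 0.123) except with array weights (0.0165). MMP10, the stromelysin-2 gene, read 6.24, 6.16 and 6.21 in control and 6.12, 5.77 and 6.06 in the knockdown, a difference of -0.22 (adjusted p = 0.250) without overlap. MMP8, the neutrophil collagenase gene, had a difference of -0.28 (adjusted p = 0.393) with overlapping groups: control 1 read 6.60, apart from control 2 and 3 at 6.06 and 5.94, and dropping control 1 gave -0.08. The 4 neighbours MMP8, MMP10, MMP1 and MMP3 were thus all below 0 and MMP3 alone passed; this run of genes was singled out after its values were seen. MMP7, the matrilysin gene, stood at -0.03, and the non-members MMP20 and MMP27 at 0.14 and 0.27 (adjusted p = 0.472 and 0.192).

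**Figure D4:**
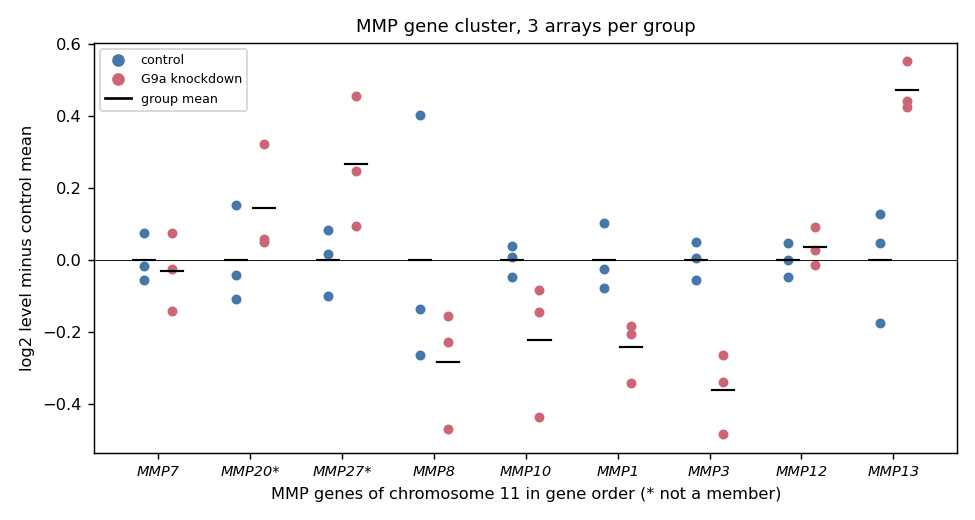
Log2 level minus the control mean (vertical axis) on each control and G9a knockdown array for the MMP genes of chromosome 11 in gene order, with group means as black lines; asterisks mark genes outside the set. MMP8 to MMP3 have knockdown means below 0, MMP12 lies near 0 and MMP13 lies at 0.47.

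Of the gelatinase genes, which act on denatured collagen and type IV collagen, MMP2 differed by 0.07 (95% interval -0.06 to 0.21) and MMP9 by -0.0026 (-0.25 to 0.25), both with overlapping groups and both among the dimmest genes. MMP9 read 7.37, 7.46 and 7.76 in control and 7.66, 7.41 and 7.51 in the knockdown, so its spread within a group was larger than the difference. Among the membrane-type MMPs, MMP14 encodes MT1-MMP, a collagenase at the cell surface that activates proMMP2. It read 11.31, 11.43 and 11.66 in control and 11.49, 11.35 and 11.27 in the knockdown. The groups overlapped, with a difference of -0.10 and a 95% interval from -0.33 to 0.13 (limma, adjusted p = 0.643), and dropping control 3 gave -0.0001. MMP16 stood at -0.24 (adjusted p = 0.226), and it passed on dropping control 3 at -0.35 (adjusted p = 0.0469) and with array weights (0.00801), but in no other fit run. A dimmer probe set of MMP16 gave a difference of -0.26. MMP15 (0.02), MMP17 (0.0070), MMP24 (0.13) and MMP25 (0.03) did not pass either, with MMP24 higher on every knockdown array. Of the remaining secreted MMPs, MMP19 was higher on every knockdown array, 8.26 to 8.46 against 8.07 to 8.20, at a difference of 0.22 (adjusted p = 0.151). MMP11 (stromelysin-3, 0.05) and MMP28 (0.15) had overlapping groups.

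Of the TIMP genes 1 passed, and all 4 had positive differences, as did 59.6% of all genes tested. TIMP4 read 8.75, 8.60 and 8.43 in control and 9.05, 9.07 and 8.995 in the knockdown, all knockdown arrays being higher, and rose by 0.44 ± 0.09 (SE, n = 3 per group; limma, adjusted p = 0.0369). It still passed on dropping control 1 or 3 (adjusted p = 0.038 and 0.0467), and did not on dropping control 2 (0.101) or knockdown 1, 2 or 3 (0.128, 0.101 and 0.124). TIMP3, which binds to the matrix and inhibits ADAM17 among others, read 12.64, 12.64 and 12.81 in control and 12.86, 12.85 and 12.84 in the knockdown, without overlap. Its difference of 0.15 (95% interval -0.0034 to 0.30) did not pass (adjusted p = 0.267) except with array weights (0.0212), and a dimmer probe set of TIMP3 stood at -0.02. TIMP2, which takes part in proMMP2 activation by MMP14, read 12.30 to 12.42 in control and 12.47 to 12.52 in the knockdown, a difference of 0.13 (adjusted p = 0.274). TIMP1 differed by 0.04 (95% interval -0.09 to 0.17), with overlapping groups.

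TIMP4 lies within the synapsin gene SYN2 on chromosome 3, as TIMP1 and TIMP3 lie within SYN1 and SYN3. The hosts did not pass, at 0.06 for SYN2, 0.18 for SYN1 and 0.05 for SYN3. Of the 10 tested genes nearest to TIMP4, 5 on each side, TMEM40 rose by 0.51 (limma, adjusted p = 0.0162) and 9 did not pass. Of all genes tested, 1.28% were called higher. The groups did not overlap, with the knockdown higher, for 5 of these 10 neighbours, beside 14.3% of all genes. The median difference of the 10 was 0.16 beside 0.03 for all genes. This neighbourhood was examined after the values were seen.

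None of the 7 ADAM genes passed (limma, adjusted p of 0.05), although 3 had an unadjusted p under 0.05 (42.9%, beside 19.4% of all genes). The same 3 did not overlap between groups, all higher in the knockdown (42.9%, beside 14.3% of all genes). ADAM12, a protease gene of invasive tumours and of the placenta, read 8.72, 8.56 and 8.63 in control and 8.96, 9.06 and 8.87 in the knockdown, a difference of 0.33 ± 0.07 (SE, n = 3 per group; adjusted p = 0.0576). ADAM8, a sheddase gene first known from leukocytes, read 9.88, 10.08 and 10.08 in control and 10.37, 10.29 and 10.32 in the knockdown, a difference of 0.32 ± 0.07 (SE, n = 3 per group; adjusted p = 0.0609). Both lay just outside the threshold and met it when the dimmest genes were left out (0.0313 and 0.0332), with an intensity trend (0.0374 and 0.0252) and with array weights (0.0105 and 0.0174). Neither met it in the other fits run. After quantile normalization the adjusted p from limma was 0.0506 for ADAM12 and 0.0662 for ADAM8, and with every probe set tested 0.147 and 0.152. With 1 array left out it ran from 0.0896 to 0.181 for ADAM12 and from 0.0649 to 0.187 for ADAM8. ADAM19 stood at 0.15 (adjusted p = 0.206) and passed with array weights (0.0297), as 18.1% of all genes did, but in no other fit run. The main sheddases ADAM10, which acts on Notch and cadherins, and ADAM17, which releases TNF and EGF receptor ligands, differed by 0.06 (95% interval -0.07 to 0.19) and -0.11 (-0.26 to 0.04). ADAM9 (-0.02) and ADAM15 (0.05) had overlapping groups.

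CTSD, an aspartic protease of lysosomes that breast cancer cells can secrete, read 12.66, 12.71 and 12.57 in control and 12.93, 12.81 and 12.83 in the knockdown. The groups did not overlap, and the difference of 0.21 did not pass (limma, adjusted p = 0.137) except with an intensity trend (0.0353). CTSB, a cysteine protease, differed by 0.02 with a 95% interval from -0.11 to 0.14, among the narrowest of the members. FAP stood at 0.05 and read 5.00 to 5.24 on all 6 arrays, within the range of olfactory receptor genes.

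**Figure D5:**
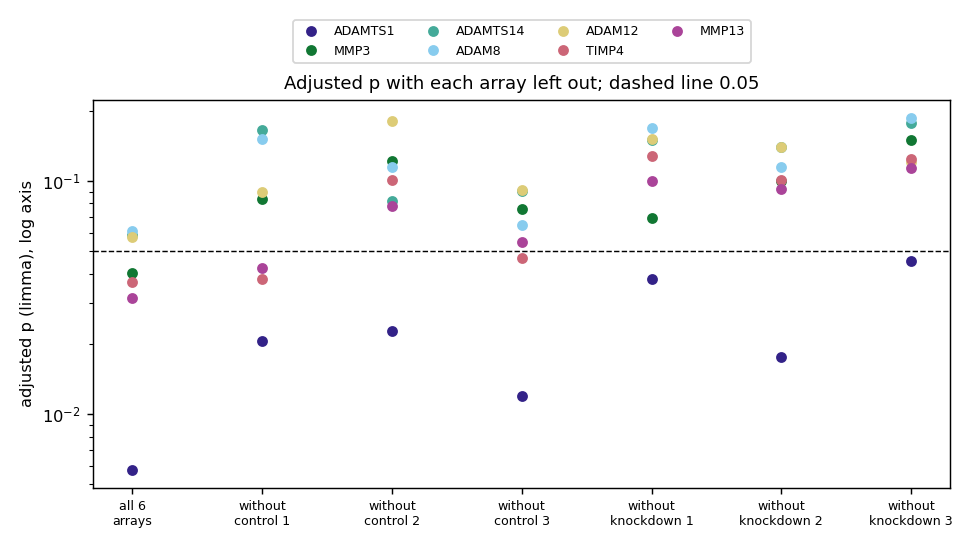
Adjusted p from limma (vertical log axis) for the 7 members named in full, with all 6 arrays and with each array left out in turn; the dashed line marks 0.05. ADAMTS1 lies below the line in all 7 fits, TIMP4 and MMP13 in some of them, and MMP3 only with all 6 arrays.

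Genes that work with these proteases were counted in lists of their own. Of 27 measured further members of the MMP, ADAM and ADAMTS families, none passed (limma, adjusted p of 0.05). The unadjusted p was under 0.05 for 3 of them (11.1%, beside 19.4% of all genes). ADAMTSL3 (0.29, adjusted p = 0.119) and MMP27 had the largest values. Of 19 genes of plasminogen activation, serine proteases and serpins, 1 rose, 1 fell and 17 did not pass. HTRA1, a secreted serine protease, read 10.68, 10.62 and 10.56 in control and 11.27, 11.13 and 11.16 in the knockdown, and rose by 0.57 ± 0.07 (SE; adjusted p = 0.00847). PLAT, tissue plasminogen activator, read 12.97, 12.99 and 13.24 in control and 12.61, 12.65 and 12.56 in the knockdown, and fell by 0.46 ± 0.08 (SE; adjusted p = 0.0292). Both groups of arrays stood apart for each gene. Dropping knockdown 3 ended the call of HTRA1 (adjusted p = 0.0575). Dropping control 2 (0.0672) or knockdown 1, 2 or 3 (0.1, 0.0714 and 0.128) ended that of PLAT.

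Of 22 further cathepsins and cystatins, 1 fell and 21 did not pass. CST1, cystatin SN, an inhibitor of cysteine cathepsins, read 9.51, 9.59 and 9.91 in control and 8.77, 8.76 and 8.65 in the knockdown and fell by 0.94 ± 0.10 (SE; limma, adjusted p = 0.00732), a call lost on dropping knockdown 3 (0.0545). Of 22 activators and regulators of metalloproteases, TSPAN5, a tetraspanin that partners with ADAM10, fell by 0.36 ± 0.06 (SE; adjusted p = 0.0205) and 21 did not pass. Its call held on dropping control 3, and was lost on dropping control 1 or 2 (0.0599 and 0.0778) or knockdown 1, 2 or 3 (0.0703, 0.0592 and 0.1). Of 24 measured substrates of these proteases, 3 fell and 21 did not pass. CXCL16, a membrane-bound chemokine that ADAM10 releases, fell by 0.60 (adjusted p = 0.00897), lost on dropping knockdown 1 or 3 (0.0503 and 0.0576). MICA, a shed ligand of natural killer cell receptors, fell by 0.42 (adjusted p = 0.0369), and missed the threshold with any 1 array left out (adjusted p from 0.0666 to 0.108). HBEGF, a growth factor released by ADAMs, fell by 0.37 (adjusted p = 0.0195) and still passed on dropping control 3; dropping control 1 or 2 (0.0713 and 0.0638) or knockdown 1, 2 or 3 (0.0693, 0.0564 and 0.0983) ended the call. Beside the 3.05% of all genes that passed, the shares were 0.0% of the further family members, 10.5% of the plasminogen list, 4.55% of the cathepsin list, 4.55% of the regulator list and 12.5% of the substrate list.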

How the data were processed

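Biotin-labelled total RNA was read on arrays of a single colour, per the labels' protocols. The deposited log2 values, 1 per probe set and array, are used as the authors gave them; no source used here states their scaling or software. That they are log2 was inferred from the range of the values, 2.13 to 14.8; array medians lay from 7.79 to 7.86. No detection calls were used, and precision rests on 3 arrays per group.

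Of 33297 probe sets, 19460 carried 1 gene symbol, 1754 several, and 12083 were unnamed; 19429 of the 19460 were found in RefSeq (GRCh38.p14) by Entrez number, which updated symbols. The brightest single-gene probe set stood for each gene, as 769 genes had several. Differences are knockdown minus control, from limma 3.58.1 in R 4.3.3 (lmFit, eBayes, two-sided, no covariate, 4 residual degrees of freedom), adjusted by Benjamini-Hochberg over 18417 genes, with 0.05 as threshold; 95% intervals are per gene and unadjusted. Folds are 2 to the power of the difference. The steps were tested on simulated data.

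The members and lists were chosen with earlier results of these data known. Members were given in full that passed, that lay above the 6139 dimmest genes with a difference of 0.3 or more in size, or whose groups did not overlap with an adjusted p under 0.1. From each other list, the genes that passed were named, or the 2 largest differences where none passed. Alternatives were quantile normalization, median centring, leaving out the 6139 dimmest genes, an intensity trend, array weights, a replicate block, the mean of a gene's probe sets, every probe set tested, other level bounds, and each array left out. Promoter windows came from RefSeq.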

Additional observations from a re-analysis of the deposited data

How the results depend on the processing

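Without any change of setting 2 members were called higher and 2 lower (9.09% of members). Of all genes 562 were called (3.05%). Quantile normalization gave 1 higher and 2 lower (6.82%, beside 3.59% of all genes). With the dimmest genes left out 4 of 31 members were higher and 1 lower (16.1%), with 972 of 12278 genes called (7.92%). ADAM8, ADAM12 and ADAMTS14 then newly passed, and MMP3 and MMP13 were no longer tested. An intensity trend gave 5 higher and 2 lower (1083 genes), and array weights 7 higher and 4 lower (3328 genes). Testing every probe set gave 0 higher and 1 lower (2.27%, beside 0.255% of all genes, 47). MMP3 (adjusted p from limma 0.119), MMP13 (0.105) and TIMP4 (0.115) then did not pass. Control 3 and knockdown 1 were also left out together, chosen after seeing the data for their low array weights. That fit gave 0 higher and 1 lower (2.27%, beside 1.86% of all genes, 343). Where no cause is named it was not tested. With 1 array left out, 0 to 2 members were higher and 1 to 2 lower (2.27% to 6.82% called). Of all genes 44 to 535 were then called (0.239% to 2.9%). Median centring and the mean of probe sets kept 2 higher and 2 lower. ADAMTS1 passed under every setting named here. With the median gene as the level bound, 20 members lay above it.

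Deviations of same-numbered arrays correlated at -0.25, 0.12 and 0.09. Those of differently numbered arrays ran from -0.34 (control 3 with knockdown 2) to 0.35 (control 1 with knockdown 2). With 3 arrays per group these values cannot show whether arrays were paired. A fit with the replicate number as a block gave 0 members higher and 1 lower (2.27%, beside 1.18% of all genes, 217). MMP3 (adjusted p from limma 0.102), MMP13 (0.0782) and TIMP4 (0.0612) lost their calls there. The adjusted p was then 0.127 for ADAM8, 0.117 for ADAM12 and 0.107 for ADAMTS14.

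Differences near 0 changed sign in places. Quantile normalization put MMP15 at -0.017, MMP17 at -0.036, MMP25 at -0.015, ADAMTS5 at -0.038 and ADAMTS10 at -0.038. Array weights put MMP9 at 0.045, MMP15 at -0.035, ADAM9 at 0.018, ADAM15 at -0.020, ADAMTS6 at 0.12 and FAP at -0.046. Leaving out control 3 and knockdown 1 together put MMP9 at 0.048, ADAM9 at 0.036, ADAM15 at -0.019, ADAMTS3 at -0.0004, ADAMTS6 at 0.12, ADAMTS16 at -0.035 and FAP at -0.045. With 1 array left out the range was -0.085 to 0.024 for MMP7, -0.083 to 0.11 for MMP9, -0.062 to 0.075 for MMP15, -0.038 to 0.050 for MMP17 and -0.035 to 0.14 for MMP25. It was -0.050 to 0.042 for ADAM9, -0.019 to 0.069 for ADAMTS5, -0.23 to 0.094 for ADAMTS6, -0.070 to 0.14 for ADAMTS10, -0.0078 to 0.082 for ADAMTS16 and -0.0031 to 0.10 for FAP. None of these genes passed in any of these fits. For the dimmest members the signal over background is unknown, which limits what their differences show.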
